A study of Mus musculus with 8 samples.

Results

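Oxysterol-derived induced pluripotent stem cells were compared with embryonic stem (ES) cells on 1 Agilent array a side, 2 of the 8 arrays of the series. The arrays were taken by their titles, OM2i-iPSC and ES. OM2i-iPSC RNA came from mouse embryonic fibroblasts (MEF) that had received combinations with an oxysterol and then 2i/LIF. ES RNA came from blastocyst-derived cells of the 129/Ola background. Arrays of the starting fibroblasts and of a preparation made with purmorphamine in place of the oxysterol (PM2i-iPSC) are given beside them as levels. The labels name neither the oxysterol, the doses and times, the strain or sex of the fibroblasts, nor whether a preparation was 1 clone or a pool, and they do not mention a feeder layer. The series as a whole is titled as reprogramming of somatic cells by small molecules, and the comparison asks how close the resulting cells came to ES cells.

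Pluripotent cells are held by a network of transcription factors around Pou5f1, Nanog and Sox2, which in naive cells is joined by Esrrb, Klf4, Tfcp2l1 and Tbx3. The medium called 2i/LIF contains inhibitors of the kinases MEK and GSK3 and the cytokine LIF. GSK3 inhibition stabilises beta-catenin, the effector of Wnt signalling, which acts through the DNA-binding proteins Lef1, Tcf7, Tcf7l1 and Tcf7l2. Wnt signals also form the tail end of the embryo, where Cdx2 and the Hox genes are switched on, and certain oxysterols activate the Hedgehog receptor component Smoothened.

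With 1 array a side there was no replicate error and no test, and every difference describes this pair of arrays. Levels are log2 of the spot signal relative to the 75th percentile of the array, and differences are OM2i-iPSC minus ES. Spots of one probe within an array had a median SD of 0.15 (ES) and 0.17 (OM2i-iPSC) on the log2 scale, which gives 0.22 for a difference, a measure of spotting error only. The arrays lay on different slides of one scan day, so preparation and slide cannot be told apart. ES and PM2i-iPSC shared a slide, and MEF was scanned on another day. In bulk RNA, a gene active in few cells and a gene weakly active in all cells cannot be told apart.

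A gene was compared when its signal cleared the background on ES, OM2i-iPSC or both, which left 20615. Of these, 4301 stood 2-fold or more above ES in OM2i-iPSC (20.9%) and 2765 stood 2-fold or more below it (13.4%). With the array median as the scale, these counts were 3502 higher and 3621 lower, so the split between higher and lower depends on the scaling (49.2% of calls higher in place of 60.9%). The median over all genes was 0.05 in the main setting, -0.13 with the median scale and 0.18 with the percentile taken over probes well above background on both arrays. The plot of all genes by their level on each array shows most of them along the diagonal.

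**Figure D1:**
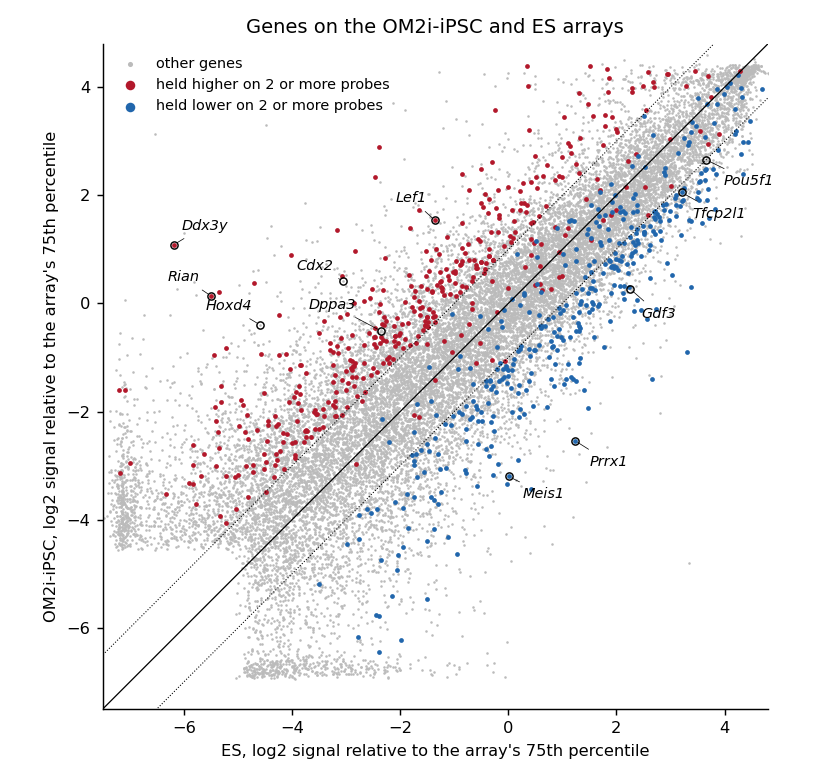
Level of each compared gene on the ES array (horizontal) and the OM2i-iPSC array (vertical), as log2 signal relative to the array's 75th percentile, for the gene's brightest probe. The solid line marks equal levels and the dotted lines 2-fold, and colours mark genes held higher (red, 412) or lower (blue, 386) on several probes. A coloured gene between the dotted lines is one whose brightest probe did not share the difference of its other probes.

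Several probes of one gene gave a check within the arrays. Of 6388 genes with 2 or more compared probes, 412 were at least 2-fold higher on at least 2 probes and 2-fold lower on none (6.45%), and 386 were lower by the same rule (6.04%). Such genes are called held below. Among 1752 genes with several probes whose brightest probe passed 2-fold, 638 were held in that direction (36.4%), and 421 genes had probes past 2-fold in both directions. In 58 of the 798 held genes, probes past 2-fold shared a run of 20 bases and were therefore not separate readings. A fold below should accordingly be read as resting on 1 probe unless its gene is called held or another probe is given. A single fold beside a held gene is that of its brightest probe.

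The difference also moved with brightness. In the dimmest of 8 equal bins of genes the median difference was 0.66 and 36.0% of genes were at least 2-fold higher. In the brightest bin the median was -0.16 and 5.86% were higher. Lineage genes that ES cells hardly express lie in the dim bins and pluripotency genes in the bright ones, so the median of a list is given below with its value after a loess fit has taken this trend out, and the counts of most lists with the shares of all genes in the brightness bin of the list's median member. The plot of differences by brightness shows the trend.

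**Figure D2:**
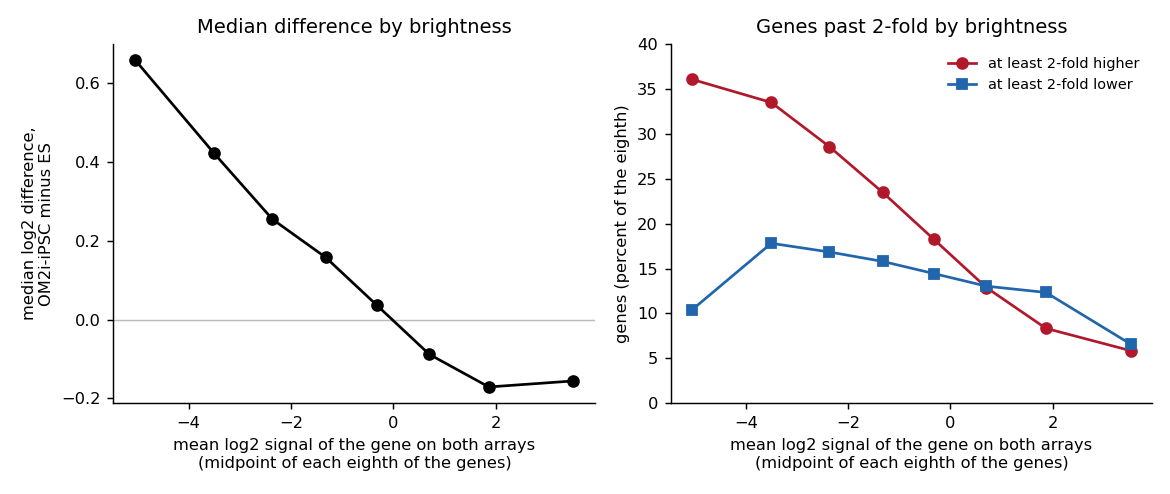
Left, the median log2 difference (OM2i-iPSC minus ES) in 8 equal bins of genes, placed at the midpoint of each bin's mean log2 level on the 2 arrays. Right, the percent of genes in each bin at least 2-fold higher (red circles) or lower (blue squares). The median falls from 0.66 in the dimmest bin to -0.16 in the brightest, and the share of higher genes from 36.0% to 5.86%.

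Probes behind the genes on which the account turns are shown first, because several of these genes rest on a single one. Each line gives the first 30 of the probe's 60 bases, 5′ to 3′ as in the array file, and positions are of the whole probe in build mm7, the build in the header of the file that holds them.
Cdx2 (chr5:146195375-146195434, minus strand): gccttttaaaaagccttcttgatccatggg
Lef1, brighter probe (chr3:131041424-131059585, plus strand): gtacaggtcccagaatgacagctgcctaca
Lef1, dimmer probe (chr3:131060609-131060668, plus strand): atctgtttttattagccgattagtgggaat
Hoxd4 (chr2:74572525-74572584, plus strand): tcatatggcaggagctactgagaacataaa
Dppa3 (chr6:122666937-122666996, plus strand): taacctttaaattgtagataggatgcacaa
Rian, brighter probe (chr12:107172103-107172162, plus strand): gagtatttccagaagaggaatgtataacag
Rian, dimmer probe (chr12:107180614-107180673, plus strand): cttctctatactgtttattttagataactg
Ddx3y, brighter probe (no position in the file): ccttgaagttccaattggatattgttgatt
Ddx3y, dimmer probe (no position in the file): ttttgatgtatttaagatattagtgaaaac
The brighter Lef1 probe covers more of the genome than its own length, so it crosses a splice junction. Exon and UTR annotation of these positions was not used here.

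The pluripotency genes were present in OM2i-iPSC at levels mostly somewhat below ES. Pou5f1 read 3.65 in ES, 2.66 in OM2i-iPSC, 3.21 in PM2i-iPSC and -6.66 in MEF, 1.99-fold lower in OM2i-iPSC than in ES. Sox2 read 2.87, 2.09, 2.46 and -1.16 in the same order, 1.71-fold lower. Nanog was saturated on both arrays, at 4.25 and 4.12, and therefore has no fold, and the brighter probe of the zinc finger factor Sall4 was saturated too, while its dimmer probe was 4.65-fold higher in OM2i-iPSC. In MEF, Nanog read -3.96. For each of these factors the preparation stood close to ES and away from fibroblasts.

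Of 38 core and naive pluripotency genes compared, 8 were at least 2-fold lower, 1 was higher and 29 were within 2-fold or without a fold. Their median difference was -0.69, against 0.05 over all genes, and -0.52 after loess. In the brightness bin of their median member, 6.60% of all genes were at least 2-fold lower. Tfcp2l1, a naive-state factor downstream of LIF, was the 1 held member. Its brightest probe read 3.21 in ES and 2.06 in OM2i-iPSC, 2.22-fold lower, another probe was 6.29-fold lower, and the remaining 2 of its 4 probes lay within 2-fold. The other 7 passed 2-fold on 1 probe. They were the secreted phosphoprotein Spp1 (5.27-fold lower), the TGF-beta family ligand Gdf3 (3.98-fold), Sox15 (3.01-fold), the T-box factor Tbx3 (at least 2.48-fold, saturated in ES), the Akt co-activator Tcl1 (2.23-fold), Eras (2.06-fold) and Zfp42, also called Rex1 (2.00-fold). Gdf3 read 2.26 in ES, 0.27 in OM2i-iPSC and 0.82 in PM2i-iPSC, so it was low in both preparations. Tcl1 read 1.51, 0.36 and 1.25, so it was low in OM2i-iPSC and not in PM2i-iPSC.

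Other members hardly differed. Klf4 (0.10), the Nodal co-receptor Tdgf1 (0.13), Nr5a2 (-0.21) and the LIF effector Stat3 (0.30) stood close to ES. Esrrb was 1.61-fold lower on its brighter probe and 1.91-fold lower on the other, and the RNA-binding protein Lin28a was 1.63-fold lower. On the brightest probe, the 1 member past 2-fold upwards was Fgf17 (2.15-fold), which is also an early mesoderm gene.

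Genes of the formative and primed state, the later pluripotent cells of the epiblast, were mixed. Of 17 compared, 6 stood 2-fold or more above ES and 2 below, with a median of 0.66 (0.51 after loess), against 28.6% and 16.8% of all genes in their bin. Otx2, a homeobox factor of the epiblast and forebrain, read -2.26 in ES and -0.43 in OM2i-iPSC (3.55-fold), the Nodal antagonist Lefty1 was 3.49-fold higher and Fgf5, the usual marker of the primed state, at least 3.03-fold higher from a dim level. Dnmt3b, the de novo DNA methyltransferase that rises on exit from the naive state, differed by -0.01. The Wnt antagonist Dkk1 went the other way. Its brighter probe read -1.38 in ES, -1.27 in PM2i-iPSC and -6.82, not well above background, in OM2i-iPSC, at least 9.36-fold lower, and its dimmer probe was at least 1.74-fold lower.

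Germline genes were found on both sides. The factor Dppa3 (Stella), a maternal-effect protein of oocytes and primordial germ cells, read -2.36 in ES, -0.51 in OM2i-iPSC, -2.06 in PM2i-iPSC and -7.04, not well above background, in MEF. It was 3.61-fold higher in OM2i-iPSC than in ES on its single probe. Also higher on 1 probe were the meiotic gene Tex11 (3.79-fold), the piRNA-pathway gene Tdrd1 (4.00-fold) and the testis ADP/ATP carrier Slc25a31 (at least 2.65 on the log2 scale). In all, 7 of 29 germline and 2-cell-stage genes compared stood 2-fold or more above ES and 4 below, against 18.2% and 14.4% of all genes in their bin. Their median was 0.13 (0.18 after loess, with 6 higher and 6 lower).

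All 4 lower ones are named here, and 3 of them, Tcstv1, Tcstv3 and Zscan4c, are known from the rare 2-cell-like state of ES cultures. Tcstv1 was lower on all 3 of its probes, its brightest reading 2.23 in ES, 0.30 in OM2i-iPSC and 1.35 in PM2i-iPSC (3.81-fold), though some of these probes share bases. Tcstv3 was lower on both of its probes (2.77-fold on the brighter). Zscan4c, a telomere-associated factor of the same state, was 2.74-fold lower on 1 of 2 probes, and the germ cell RNA-binding protein Dazl 4.00-fold lower on 1 of 2. Other 2-cell-stage genes did not share this: Zfp352 was 2.08-fold higher and Usp17la within 2-fold (-0.92).

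Genes of the caudal epiblast and presomitic mesoderm, the tissue that makes the trunk and tail, were more often higher than lower. Of 28 compared, 13 stood 2-fold or more above ES and 0 below, against 20.9% and 13.4% over all genes. In the brightness bin of their median member 28.6% of all genes were higher. Their median difference was 0.97, and 0.64 after loess, when 11 were higher. Only 5 of the 28 had several probes, and 2 of these were held. The 13 higher members include Cdx2, Lef1 and Hoxd4, markers chosen with earlier results of these data known. Their share in the count is therefore no separate evidence, and Hoxd4 is counted again in the Hox list below.

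Cdx2, the homeobox regulator of trophectoderm and of the posterior body, read -3.05 in ES, 0.41 in OM2i-iPSC, -3.25 in PM2i-iPSC and -6.73, not well above background, in MEF. OM2i-iPSC alone of the 4 arrays stood above its array's 75th percentile, and the gene was 11.0-fold higher than in ES on its single probe. Lef1 read -1.36 in ES, 1.54 in OM2i-iPSC, -2.89 in PM2i-iPSC and 0.22 in MEF on its brighter probe, 7.42-fold higher in OM2i-iPSC than in ES. The dimmer probe gave -1.26, 1.10, -4.20 (not well above background) and 1.43, a 5.12-fold difference. Both Lef1 probes therefore placed OM2i-iPSC above ES and PM2i-iPSC below it. A further Lef1 probe was not well above background on either array. The ligand Wnt5b was also held, 2.37-fold and 3.99-fold higher on its probes.

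Other members rest on 1 probe. The Wnt amplifier Rspo3 was not well above background in ES and PM2i-iPSC and read -2.26 in OM2i-iPSC (at least 7.33-fold) and 2.77 in MEF. Similarly dim in ES were the segmentation-clock repressor Hes7 (at least 5.87-fold higher), the retinoic acid-degrading enzyme Cyp26a1 (at least 4.69-fold), the Notch ligand Dll1 (at least 3.64-fold) and Wnt3a (at least 2.09-fold). Msgn1, a master regulator of presomitic mesoderm, was 2.55-fold higher. Tbx6, another regulator of that tissue, was not above background in OM2i-iPSC, and the Wnt target Sp5 was within 2-fold. The defining caudal genes T and Cdx4 were not well above background on either array, nor were Mixl1, Wnt5a and Lfng. Most of these readings were dim in OM2i-iPSC as well.

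The binding motif of Lef1 and its relatives was looked for in the promoters of these genes, taken as the 250 bases before the start site in RefSeq (GRCm38.p6). The letters searched were CTTTGAT and, for the other strand, ATCAAAG. Of 10 promoters of higher members in that table, 1 held a match, and of 26 promoters of the whole list 3 did (11.5%), against 3.23% of 27025 promoters. The match among the higher members was in Msgn1, and its promoter (chr12:11208949-11209198, minus strand) is printed with the match in capitals.
Msgn1: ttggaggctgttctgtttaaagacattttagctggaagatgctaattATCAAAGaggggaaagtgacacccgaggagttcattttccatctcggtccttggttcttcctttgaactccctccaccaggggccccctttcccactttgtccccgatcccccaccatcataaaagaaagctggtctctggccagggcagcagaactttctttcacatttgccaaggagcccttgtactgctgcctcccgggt
The match is a run of letters and not a measured binding site, and the promoters of Cdx2 and Lef1 held none in this window.

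Of the Hox genes, which give the body axis its regional identity, some were higher and most did not pass 2-fold. Of 26 compared, 11 stood 2-fold or more above ES and 0 below, with a median of 0.92 (0.60 after loess, with 8 higher). In their bin 28.6% of all genes were higher and 16.8% lower. Hoxd4 read -4.60 in ES, -0.39 in OM2i-iPSC, -2.52 in PM2i-iPSC and -0.25 in MEF, 18.5-fold higher in OM2i-iPSC than in ES and close to the fibroblast level. Hoxd13 read -4.06, -1.85, -4.19 and 2.36 in that order (4.62-fold), and Hoxc5 -2.07, 0.11, -3.19 and -3.75 (4.53-fold). So Hoxd13 was most abundant in MEF and Hoxc5 in OM2i-iPSC. Hoxd9 was 5.68-fold higher on its brighter probe and within 2-fold on the other, and no Hox gene was held. The members were spread over the 4 clusters, and both early genes such as Hoxa2 (1.08) and late ones such as Hoxb13 (1.19) were among them.

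Genes around the Hox system went both ways. Meis1, a Hox cofactor, read 0.00 in ES, -3.20 in OM2i-iPSC, -1.44 in PM2i-iPSC and 0.85 in MEF, 9.22-fold lower, and its dimmer probe was at least 2.25-fold lower. Dhrs3, which reduces retinal and limits retinoic acid, was 3.40-fold lower on its brighter probe and held. Of the retinoic acid-producing enzymes, Aldh1a3 was at least 8.34-fold lower and Aldh1a1 6.58-fold higher, each on 1 probe. In all, 6 of 20 genes of this list were higher and 5 lower, with a median of -0.13 (-0.25 after loess), against 23.5% and 15.8% of all genes in their bin.

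Wnt target genes as a list did not follow Lef1. Of 20 compared, 4 stood 2-fold or more above ES and 5 below, with a median of 0.14 (0.07 after loess), against 18.2% and 14.4% of all genes in their bin. Axin2, the most used reporter of beta-catenin activity, differed by 0.19. Tcf7l2, another DNA-binding partner of beta-catenin, was lower on all 4 of its probes, by at least 3.88-fold, 5.80-fold, 3.25-fold and at least 5.47-fold. The receptor gene Tnfrsf19 was held 2.40-fold higher, and the Wnt antagonist Sfrp1 was 4.08-fold lower on 1 probe. Lef1 and Tcf7l2, which bind the same motif, thus differed in opposite directions.

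**Figure D3:**
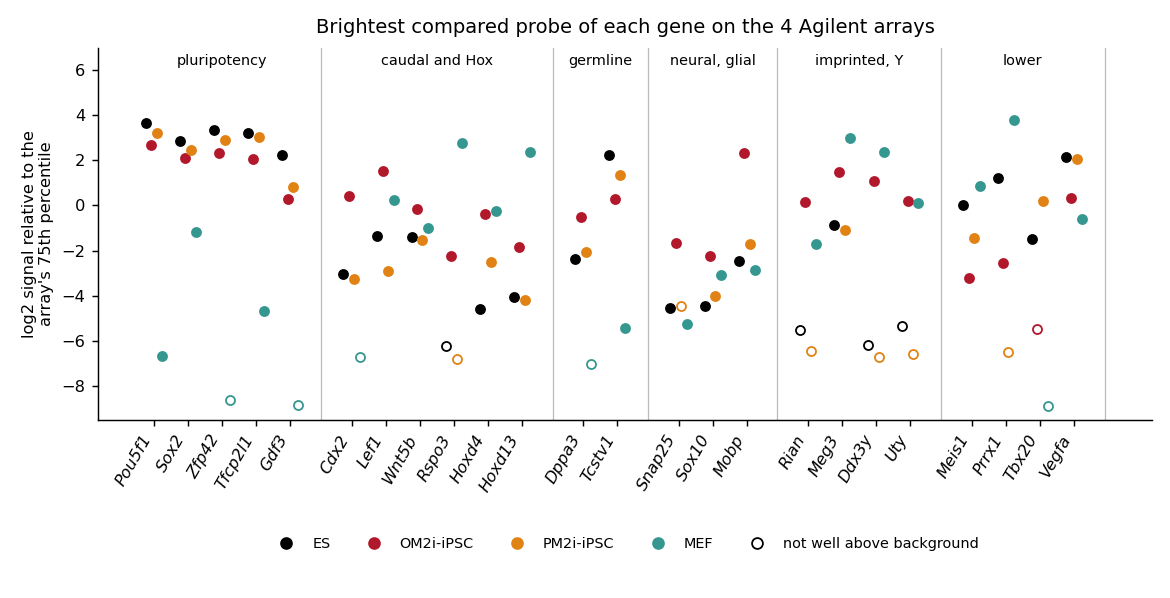
Level of the brightest compared probe of 24 genes on the ES, OM2i-iPSC, PM2i-iPSC and MEF arrays, 1 array each, as log2 signal relative to the array's 75th percentile. Open circles were not well above background. Cdx2 stands at 0.41 in OM2i-iPSC against -3.05 in ES, Rian and Ddx3y are above background in OM2i-iPSC and MEF and not in ES or PM2i-iPSC, and Prrx1 stands at 1.23 in ES and -2.54 in OM2i-iPSC.

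Trophoblast genes gave no common direction. Of 26 compared, Cdx2 among them, 8 stood 2-fold or more above ES and 3 below, with a median of 0.10 (-0.01 after loess). In their bin 23.5% of all genes were higher and 15.8% lower. The placental regulators Gcm1 (at least 7.35-fold), Esx1 (at least 6.14-fold) and Hand1 (4.04-fold) were higher, each on 1 probe, while Eomes (-0.56) and Gata3 (0.14) were within 2-fold. Elf5, a defining trophoblast factor, was not well above background on any of the 4 arrays. Bmp4 was 5.52-fold lower. The keratin Krt8 was split, 4.68-fold lower on its brighter probe and 3.20-fold higher on the other.

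Neural genes were also more often higher than lower, as were all genes in their brightness bins. Of 29 neural progenitor genes, 12 stood 2-fold or more above ES and 3 below (median 0.59, 0.42 after loess), and of 28 neuronal genes, 11 and 2 (median 0.88, 0.73 after loess). In the bin of the progenitor genes 28.6% of all genes were higher and 16.8% lower, and in that of the neuronal genes 23.5% and 15.8%. Snap25, a synaptic vesicle fusion protein, was higher on all 3 of its probes, by 2.87, at least 2.32 and at least 3.86 on the log2 scale. On the brightest it read -4.53 in ES, -1.66 in OM2i-iPSC, and -4.45, not well above background, in PM2i-iPSC. Some of the Snap25 probes share bases. Cplx2, which regulates the same fusion machinery, was held 2.47-fold higher, and the forebrain homeobox factor Six3 2.21-fold higher.

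The remaining neural differences passed 2-fold on 1 probe or went the other way. Stmn3 was 7.44-fold higher, the stem cell surface protein Prom1 5.35-fold, the dorsal neural tube factor Msx3 6.49-fold and the neurofilament gene Nefl 3.44-fold. The general neuronal markers Tubb3 (0.87), Map2 (0.36) and Elavl3 (0.03) were within 2-fold on their brightest probes. The glutamate receptor subunit Grin1 was 5.98-fold lower and the proneural factor Neurog2 3.37-fold lower. The summed linear level of the 6 neuronal markers chosen for the check (1 being the 75th percentile) was 5.79 in OM2i-iPSC, 2.59 in ES, 2.75 in PM2i-iPSC and 3.03 in MEF. Most of the difference from ES lay in 1 of the markers, Stmn2, which read 0.12 in ES and 1.90 in OM2i-iPSC on the log2 scale.

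Oligodendrocyte and neural crest genes had 5 held members among the 11 with several probes, 4 higher and 1 lower, against 6.45% and 6.04% of all genes with several probes. Sox10, a transcription factor of both lineages, read -4.45 in ES, -2.25 in OM2i-iPSC, -4.00 in PM2i-iPSC and -3.09 in MEF (4.58-fold), and its dimmer probe was at least 7.90-fold higher. The myelin genes Mag (3.73-fold) and Mobp were held as well. On their brightest probes Mag read 3.47 in OM2i-iPSC and 3.99 in MEF, and Mobp 2.35 and -2.84. On that probe Mag was thus highest in MEF, while its dimmer probe read -5.27 in MEF and -3.80 in OM2i-iPSC. Mobp was 28.1-fold higher on its brightest probe, at least 4.51-fold on another and 1.74-fold on the remaining one, so the size of its difference depends on the probe. The transcription factor Ets1 was held 5.26-fold higher, and the nerve growth factor receptor Ngfr 2.13-fold and 4.64-fold lower on its probes. Ets1 too was higher in MEF (1.79) than in OM2i-iPSC (-0.78). The myelin enzyme Cnp was 3.01-fold lower on its single probe. In all, 7 of 20 members were higher and 4 lower, with a median of 0.38 (0.18 after loess), against 18.2% and 14.4% of all genes in their bin.

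Mesoderm, heart and muscle genes showed 10 higher and 3 lower of 30 (median 0.52, 0.34 after loess, when 6 were higher), against 28.6% and 16.8% of all genes in their bin. Osr1, an early factor of intermediate mesoderm, was not well above background in ES and read -1.82 in OM2i-iPSC, -2.22 in PM2i-iPSC and -2.68 in MEF, at least 9.92-fold higher than in ES on the brighter of 2 held probes. The sarcomere genes Myh7 (2.87-fold), Myh6 (2.02-fold) and Tnni1 (2.17-fold) were held from dim levels, the probes of Myh7 sharing bases. The cardiac factor Tbx20 was held lower. It read -1.51 in ES, 0.20 in PM2i-iPSC and -5.48, not well above background, in OM2i-iPSC (at least 8.55-fold), and the myosin light chain Myl4 was 5.32-fold and 6.75-fold lower on 2 probes that share bases. Myogenic Myog (6.14-fold) and Mef2c (at least 3.58 on the log2 scale) were higher on 1 probe, so muscle genes were found on both sides.

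Globin genes were held higher in the blood and endothelium list, where 8 of 25 stood 2-fold or more above ES and 3 below (median 0.59, 0.26 after loess), against 28.6% and 16.8% of all genes in their bin. Hbb-b1, an adult beta-globin, was higher on all 3 compared probes (4.19-fold on the brightest, which read 1.85 in ES and 3.91 in OM2i-iPSC), and Hba-a1 was 2.43-fold higher on its brighter probe. Near-identical globin copies can share these probes. Endothelial Cdh5 was not well above background in either cell type, and Etv2, which starts the blood and vessel lineage, was 5.35-fold lower. Runx1 was 5.38-fold higher on 1 of 2 probes and Cd34 4.49-fold higher on its single probe, while Klf1 was at least 3.62-fold lower. Endoderm genes showed 3 higher and 4 lower of 27 (median -0.06, -0.07 after loess), with the basement membrane laminin Lama1 held lower (4.67-fold). In the endoderm bin 23.5% of all genes were higher and 15.8% lower. Surface epithelium genes had 7 members past 2-fold upwards and 1 downwards of 23 (median 0.18, 0.20 after loess), and astrocyte genes 4 and 0 of 15 (median 0.51, also after loess). Both lists fell in a bin where 12.9% of all genes were higher and 13.0% lower. The 1 held astrocyte gene, Sox9, went the other way, at least 2.65-fold and 3.16-fold lower on 2 of 3 probes. Stress and interferon genes had 2 and 3 of 23 (median 0.20, 0.25 after loess), and cell cycle inhibitors with p53 targets 1 and 1 of 23 (median 0.03, 0.16 after loess). The shares of all genes higher and lower were 12.9% and 13.0% in the bin of the stress genes. For the inhibitors and p53 targets they were 8.34% and 12.3%.

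**Figure D4:**
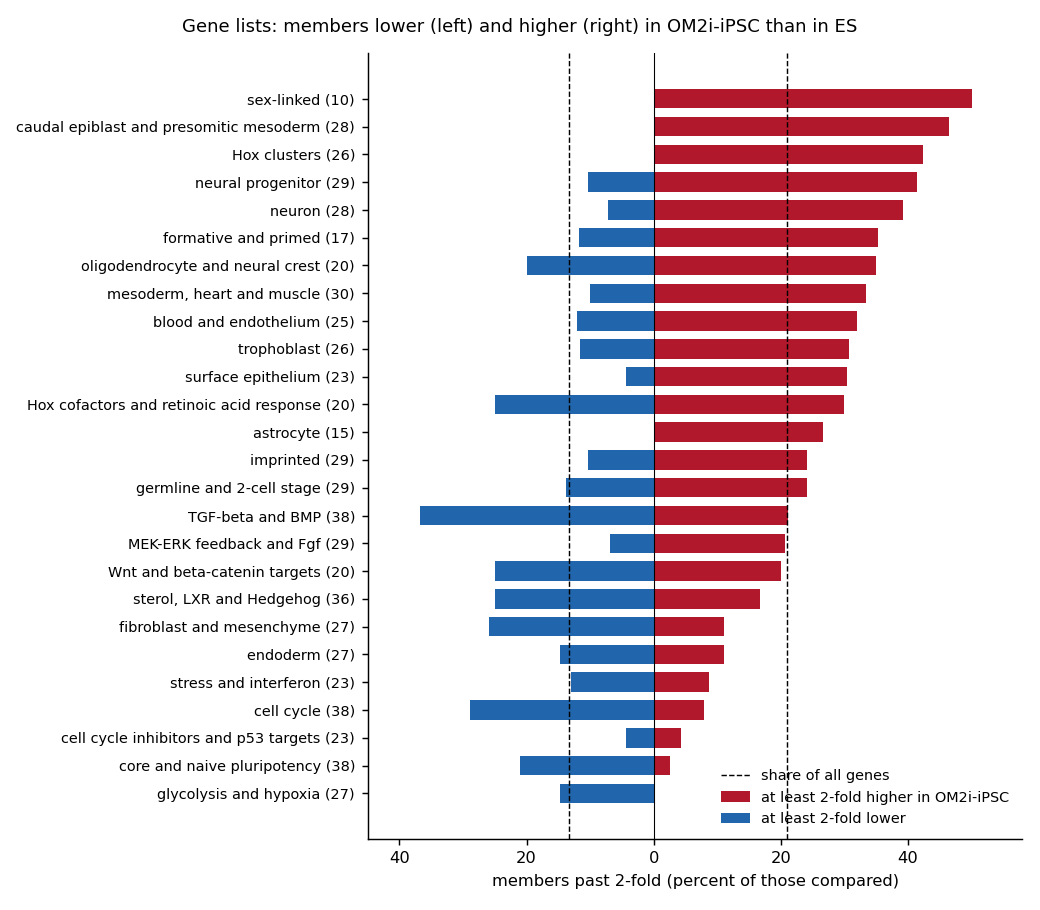
Percent of the compared members of each gene list that were at least 2-fold higher (red, to the right) or lower (blue, to the left) in OM2i-iPSC than in ES, with the number compared in brackets. Dashed lines mark the share over all genes, 20.9% higher and 13.4% lower. The caudal (46.4%) and Hox (42.3%) lists reach far to the right with no member on the left, and the TGF-beta and BMP list reaches farthest to the left (36.8%).

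Noncoding RNAs of the imprinted Dlk1-Dio3 region on chromosome 12, which the maternal chromosome expresses, stood out by size and by probes. Rian read 0.14 in OM2i-iPSC, -1.69 in MEF, and -5.51 and -6.45, not well above background, in ES and PM2i-iPSC. It was at least 38.7-fold higher than in ES, and the dimmer probe gave at least 38.1-fold. Meg3, listed as Gtl2 on the array, was higher on all 5 of its probes, by 5.11-fold to 19.9-fold. Its brightest probe read -0.87 in ES, 1.49 in OM2i-iPSC, -1.07 in PM2i-iPSC and 3.01 in MEF. Mirg, the host of a microRNA cluster in the region, was 37.4-fold higher on its single probe. On these probes the 3 RNAs were higher in OM2i-iPSC than in ES and PM2i-iPSC. The fibroblast level depended on the probe, since one Meg3 probe read -3.71 in MEF, below its -3.07 in ES. Of the protein-coding genes of the region, Dio3 was 4.02-fold higher and Dlk1 differed by -0.07.

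Of 29 imprinted genes compared, 7 passed 2-fold upwards and 3 downwards, with a median of 0.13 (0.21 after loess), against 18.2% and 14.4% of all genes in their bin. Of the 7, 4 were the genes of this region just given (Rian, Meg3, Mirg and Dio3) and the others Ndn, Usp29 and Airn. The neuronal gene Nnat read -0.39 in ES, -2.79 in PM2i-iPSC, 2.70 in MEF and -6.47, not well above background, in OM2i-iPSC, at least 18.6-fold lower on 1 probe. The pair H19 (-0.94) and Igf2 (0.69) stayed within 2-fold on all probes.

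Of the Y-linked genes, Ddx3y, Uty, Eif2s3y, Zfy1 and Zfy2 were well above background in OM2i-iPSC and not in ES. The RNA helicase Ddx3y was at least 74.6-fold higher on its brighter probe and at least 46.4-fold on the other, and it headed the held genes. It read 1.09 in OM2i-iPSC, 2.36 in MEF, and -6.18 and -6.70, not well above background, in ES and PM2i-iPSC. The demethylase homologue Uty was at least 40.8-fold higher on one probe and at least 2.16-fold on the other, and the translation factor Eif2s3y at least 22.3-fold on its single probe. The zinc finger genes were dim, with Zfy1 at least 2.10-fold and 3.07-fold higher and Zfy2 at least 3.02-fold on 1 of 2 probes. On its brightest compared probe Zfy1 read -4.06 in OM2i-iPSC and -4.13 in PM2i-iPSC, both well above background, unlike Ddx3y. Kdm5d differed from these, since its probe was not well above background in OM2i-iPSC and dim in ES (-4.07). Xist, the RNA that coats the inactive X, was 1.80-fold lower in OM2i-iPSC on its brightest probe, with 1 of 3 probes past 2-fold. Sex is not among the labels of any of these samples.

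Fibroblast genes were mostly at or below the ES level. Of 27 compared, 3 stood 2-fold or more above ES and 7 below, with a median of -0.63 (-0.63 after loess), against 18.2% and 14.4% of all genes in their bin. Prrx1, a mesenchymal homeobox factor, read 1.23 in ES, -2.54 in OM2i-iPSC, -6.48, not well above background, in PM2i-iPSC and 3.78 in MEF. It was 13.6-fold and 15.9-fold lower on 2 probes and within 2-fold on the other 2 compared. Col1a1 was lower by at least 7.10-fold and at least 4.61-fold on 2 probes and by 1.54-fold on its brightest. The contractile gene Acta2 was 7.85-fold and at least 4.65-fold lower on 2 of 4 probes, and the adhesion gene Cdh11 3.42-fold and 2.11-fold lower on 2 of 3, while the brightest probe of each lay within 2-fold. Among the 3 higher members were Pdgfrb (5.16-fold) and Col3a1 (4.32-fold on 1 of 2 probes). Zeb2, not counted among them, was held higher on 2 dimmer probes and was 1.59-fold higher on its brightest.

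On each array 11 fibroblast markers were read. In OM2i-iPSC 8 were well above background, in ES 10, in PM2i-iPSC 7 and in MEF 11. Their summed linear level was 7.36 in OM2i-iPSC, 12.001 in ES, 5.18 in PM2i-iPSC and 189 in MEF. Dcn, Lum and Postn were the markers not well above background in OM2i-iPSC, and Postn was not in ES either. Among the others, Col1a2 read 1.56 in OM2i-iPSC and 1.94 in ES, and Fbln2 1.02 and 1.75. Col3a1 was above ES, at -0.49 against -2.60.

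Genes of the TGF-beta and BMP pathways had the highest share of lower members of the 26 lists, 14 of 38, with 8 higher and a median of -0.03 (-0.01 after loess). In their bin 18.2% of all genes were higher and 14.4% lower. Among ligands, Inhba was at least 9.08-fold lower, Inhbb 4.01-fold on 1 of 2 probes and Bmp4 5.52-fold lower. Inhbe was at least 8.85-fold higher, from a level not well above background in ES, and Tgfb2 was 4.43-fold higher. The receptor Tgfbr2 was 4.00-fold lower. Of the feedback and target genes, Smad7 was 3.59-fold lower and the inhibitor of differentiation Id1 2.92-fold lower on 1 of 2 probes. Id3 was 3.85-fold higher and Msx1 4.58-fold higher. Thbs1, a matrix protein that activates latent TGF-beta, was held on 2 of 3 probes. It read 0.85 in ES, -1.52 in OM2i-iPSC, -1.61 in PM2i-iPSC and 4.92 in MEF, 5.17-fold lower, so both preparations stood below ES. The latent TGF-beta binding protein Ltbp1 was held 2.21-fold higher.

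Feedback genes of the MEK-ERK pathway, which 2i blocks, were listed together with Fgf genes. Of 29 compared, 6 were higher and 2 lower, with a median of 0.10 (0.10 after loess). In their bin 18.2% of all genes were higher and 14.4% lower. The feedback phosphatase Dusp4 (2.48-fold) and the receptor Fgfr2 (2.93-fold) were held higher. The feedback genes Spry4 (0.04) and Dusp6 (-0.32) stayed within 2-fold, the latter saturated in ES. Spry2 was split, with its bright probe at least 6.16-fold lower and its dim probe at least 5.27-fold higher.

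Among 38 cell cycle genes, 11 were lower and 3 higher, with a median of -0.60 (-0.43 after loess, when 8 were lower). In the brightness bin of their median member 12.3% of genes were lower. The lower ones included Cdk1 (3.41-fold), the centromeric histone Cenpa (3.11-fold), the replication helicase subunit Mcm2 (2.62-fold) and Ccnd1 (2.62-fold), none of them held. The phosphatase Cdc25a was held 3.08-fold higher. Ccnd2 was at least 19.3-fold higher on the brightest of 3 probes and within 2-fold on the others. Of 27 glycolysis and hypoxia genes, 0 were higher and 4 lower (median -0.05, 0.04 after loess), against 5.86% and 6.60% of all genes in their bin. The angiogenic factor Vegfa (3.52-fold) and hexokinase Hk1 (2.96-fold, past 2-fold on 2 of 4 probes) were held.

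Sterol, liver X receptor and Hedgehog genes bear on the compound class used, although the RNA was taken after reprogramming. Of 36 compared, 6 stood 2-fold or more above ES and 9 below, none held, with a median of -0.40 (-0.36 after loess), against 18.2% and 14.4% of all genes in their bin. The liver X receptor target Abca1, a cholesterol exporter, was 4.74-fold lower on its single probe. Insig1 was at least 6.51-fold higher on 1 probe, from a level not well above background in ES. The Hedgehog receptor and target Ptch1 was 2.62-fold lower on 1 of 2 probes, and Hhip, a target that binds the ligand, was at least 8.23-fold higher on 1 probe and at least 1.91-fold lower on the other. Gli1, the target most used to read the pathway, differed by -0.13, and Smo by -0.28.

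The held genes with the widest differences were no set of one lineage. After Ddx3y and Rian came the transcriptional co-activator Cited4 (8.74-fold and more on both probes), the adrenergic receptor Adra2a, Osr1, the calcitonin receptor Calcr, the R-spondin receptor Lgr6, the cilium gene Ift57, the vomeronasal receptor Vmn1r58, the neuronal matrix protein Reln, the synaptic organiser Cbln2 and the kinase Abl2. Cited4 read -2.28 in ES, 0.85 in OM2i-iPSC and -4.12, not well above background, in PM2i-iPSC. Calcr read -0.95 in OM2i-iPSC and was not well above background in ES. For Ift57 the brightest probe went slightly the other way (-0.74).

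On the lower side Prrx1 was followed by the deacetylases Hdac10 (8.37-fold) and Sirt7 (6.45-fold), the lectin Lgals4 (6.85-fold) and Frat1, a GSK3-binding protein (8.50-fold). Next came the ubiquitin ligase adaptor Ndfip2 (6.02-fold), the innate immune kinase Irak4 (5.93-fold), the MHC class I gene H2-T22 (5.74-fold), the kinase Rps6kb2 (5.73-fold) and the ubiquitin hydrolase Uchl4 (5.52-fold), and, on dimmer probes only, Mib1 and Bptf. Frat1 read 3.39 in ES, 0.30 in OM2i-iPSC, 1.49 in PM2i-iPSC and 3.79 in MEF. Irak4 read 1.76, -0.81, -0.87 and 4.34, so on this probe it was low in both preparations. The probes of Frat1 and of Sirt7 share bases. In the plot of single probes, the readings of some held genes lie close together, as for Uchl4 (-2.46 and -2.49). Those of others lie apart, as for Bptf (-2.64 to 0.42) and, on the higher side, Ift57 (-0.74 to 3.33).

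**Figure D5:**
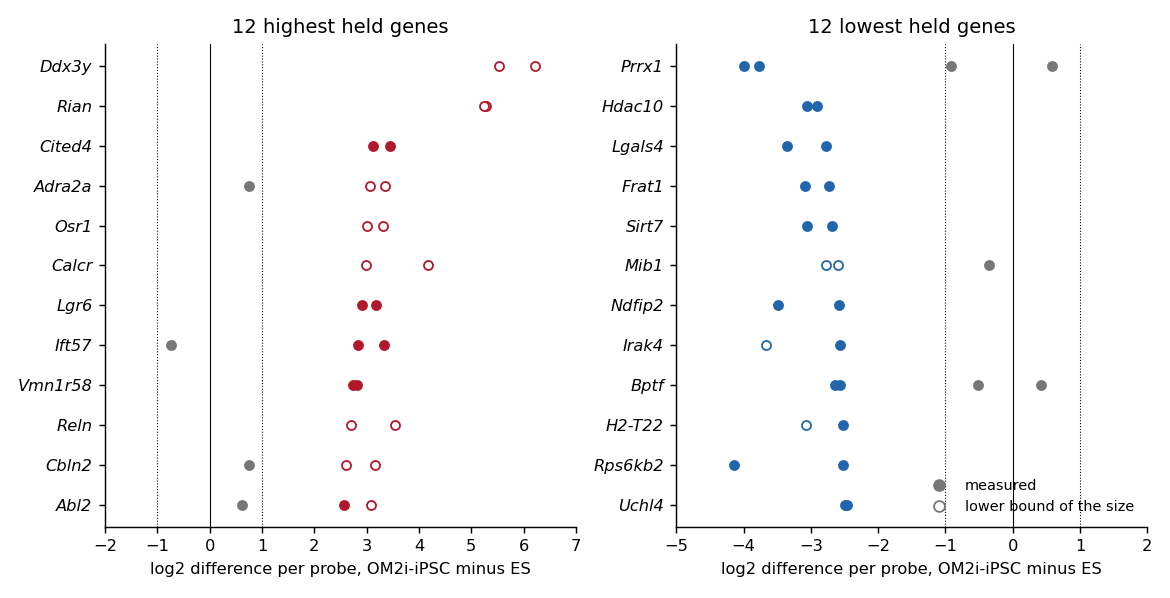
Log2 difference (OM2i-iPSC minus ES) on every compared probe of the 12 highest (left) and 12 lowest (right) held genes, ranked by the smallest difference among the probes past 2-fold. Filled circles were measured, open circles are lower bounds of the size, grey circles lie within 2-fold, and dotted lines mark 2-fold. Ddx3y and Rian lie above 5, and Prrx1 has 2 probes far below the line of equal levels (-3.77 and -3.99) and 2 within 2-fold.

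By chromosome, the median difference of 19 autosomes and the X ran from -0.09 (chromosome 10) to 0.24 (chromosome 8). Chromosome 8 lay 0.19 above the median of all genes, with 23.5% of its 1042 genes at least 2-fold higher and 9.21% lower. With both arrays required above background its median was 0.21. The PM2i-iPSC array, against the same ES array, gave -0.04 for chromosome 8, and OM2i-iPSC minus PM2i-iPSC gave 0.25. The next highest autosome was chromosome 6 with 0.12.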

How the data were processed

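Each sample was 1 single-colour Agilent array. The authors deposited scanner files whose processed signal, a spot intensity with background subtracted, came from Feature Extraction 10.7.3.1 (ES, OM2i-iPSC and PM2i-iPSC) and 9.5.3.1 (MEF), per the file headers. Gene names, sequences and positions (mm7) were in the MEF file only. The deposited series table was used as an alternative: it holds the same intensity, neither logged nor centred, with medians of 470 (ES), 585 (OM2i-iPSC), 552 (PM2i-iPSC) and 190 (MEF). All its values were within 0.5% of the scanner's. The Affymetrix arrays were not used here.

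Controls and outlier-flagged spots were dropped, replicate spots averaged, and each signal divided by its array's 75th percentile before log2. A probe entered if well above background on ES or OM2i-iPSC. A dim side took the array's detection floor (its faintest probe still well above background) unless its own signal was brighter, and such differences, like those with 1 saturated side, are written "at least". A gene is represented by its brightest compared probe. Python 3.11.15 and limma 3.58.1 (R 4.3.3, for normexp) were used, and the code was tested on simulated data.

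The genes, lists and rules were chosen with earlier results of these data known. Genes were named by this rule: 4 markers and 12 anchors, up to 6 held members per list with up to 3 others and 2 against the majority, and the 12 highest and 12 lowest held genes with named products. Some genes that the rule picked are not given above, and further list members were named after their values were seen. Array number, and not depth, limits the precision. Alternatives covered scaling, quantile normalization, background correction, filters, gene summary, gene names and threshold.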

Additional observations from a re-analysis of the deposited data

How the results depend on the processing

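The counts at 2-fold stayed within 1.5 times of the main ones under every alternative but the threshold. At 4-fold, 1260 genes were higher and 617 lower, with 76 and 57 held. Of the counts of held genes, the lower one was 603 with the array median as the scale, and the higher one was 239 with both arrays required above background and 623 with no filter on background. With loess centring, 289 of the 412 genes held higher and 342 of the 386 held lower remained. Over the alternatives, values of named genes moved by less than the spot error of 0.22 in 1704 cases, by more in 205 and changed sign in 4, and list medians moved by less in 297 cases and by more in 15. Scaling by the array median, the other percentile or spike-in probes only adds 1 constant to all values. The deposited table holds the same signal. Each of these settings left 162 named genes the same, which is no sign of their stability. Loess centring moved 36 named genes, normexp 64 and the mean over probes 58, with 3 more reversed. Nr2f2 was 3.99 with outlier spots kept (at least -2.78 in size otherwise). With the mean over probes in place of the brightest, Sox7 was -0.58 (1.29 otherwise), Nfib -0.66 (2.61) and Hspa1a -0.17 (1.06). The cause of these changes was not tested, beyond the different probes or spots each alternative used. No paired analysis was possible because each group has 1 array. Signal over background limits the dim genes, for which a fold is a bound.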

Other observations

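A few held genes outside the lists are given as values. They were chosen after their values were seen, and no group of genes was tested. The synaptonemal complex gene Sycp2 read -2.38 in ES, 0.00 in OM2i-iPSC and -2.59 in PM2i-iPSC, and its smaller difference of 2 probes was 4.12-fold. The meiotic cohesin Rec8 (3.59-fold), Usp26 (4.91-fold), Adad2 (5.51-fold) and Nup210l (5.45-fold) were higher as well, each figure being the smaller of 2 probes. Adad2 was also high in PM2i-iPSC (-0.96, against -1.28 in OM2i-iPSC and -3.74 in ES).

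By the same measure the calcium channel subunit Cacna2d1 (4.38-fold), the adhesion gene Nrcam (3.90-fold) and the collagens Col4a3 (at least 5.13-fold) and Col11a1 (4.94-fold) were higher in OM2i-iPSC. The RNA sensor Ddx58 was lower. It read 0.28 in ES, -2.04 in OM2i-iPSC and -4.28, not well above background, in PM2i-iPSC (5.01-fold on the smaller of its 2 probes past 2-fold). The synthetase Oas2 was 4.94-fold lower.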
